A study of Mus musculus with 24 samples.

Results

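The tissue inhibitors of metalloproteinases (TIMPs) and the matrix metalloproteinases (MMPs) were followed in mouse hearts on Affymetrix arrays. The genes were taken by symbol: Timp1, Timp2, Timp3, Timp4, Mmp2, Mmp3, Mmp8, Mmp9, Mmp14 and Mmp15. Of these 10 genes, 9 had a probe set in the annotation used, and their 22 probe sets are described here out of 45037 tested. Timp2 had 6 probe sets, Timp3 had 4, Mmp14 had 3, Timp4, Mmp2 and Mmp9 had 2 each, and Timp1, Mmp3 and Mmp8 had 1 each. Mmp15 was not analysed here.

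Hearts came from mice of 4 genotypes at 90 days of age, with 6 biological replicates of each and 1 array per heart. Non-transgenic mice (NTG) were the controls, and the transgenic mice carried the human AC5 cDNA (AC5, type 5 adenylyl cyclase), the human beta1-Gly389 cDNA (GLY) or the human beta1-Arg389 cDNA (ARG). GLY and ARG express the polymorphic forms of the beta1-adrenergic receptor that differ at residue 389. In all transgenic groups the alpha-myosin heavy chain promoter directed expression to cardiac myocytes, so the transgene acted in muscle cells while the RNA came from the heart. The strain and the number of founder lines are not given in the sources used here.

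Each value was relative to non-transgenic hearts, which centred near 1, and is given below as this ratio or as its log2. Such a ratio holds no signal level, so levels of different genes were not compared and dim probe sets were not told apart from bright ones. Differences are log2 differences between genotype means ± SE, from limma fitted to all 24 arrays (n = 6 hearts per genotype), with Benjamini-Hochberg adjustment over all 45037 probe sets. A probe set was called, and is said to have risen or fallen, at an adjusted p under 0.05. The comparisons with NTG share the NTG hearts. The mean SD between hearts over the 22 probe sets was 0.214 (NTG), 0.216 (AC5), 0.317 (GLY) and 0.276 (ARG) on the log2 scale. The pooled spread of the fit is therefore too small, on average, for ARG against GLY, and too large, on average, for AC5 against NTG. In earlier results of these data replicates 1 to 3 and replicates 4 to 6 behaved as a pair of sets, which the labels do not name, so values within each set are given beside the main calls.

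MMPs are zinc-dependent proteases that cleave collagens, proteoglycans and other proteins of the extracellular matrix, and most are secreted as inactive precursors. TIMPs bind the active site of MMPs and block it. In the heart the balance between both families is known to govern the turnover of collagen between myocytes, and it shifts in cardiac remodelling and fibrosis. Timp1 is inducible by cytokines and is made by fibroblasts and immune cells, Timp4 is the member most typical of the heart, and Timp2 has a role in activating the Mmp2 precursor together with membrane-bound Mmp14.

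The sequences just upstream of the start of 5 of these genes are shown because a probe set of each was called in ARG against NTG, 4 upward (Timp1, Timp2, Mmp3, Mmp14) and 1 downward (Timp4). Each is the 250 bases before the annotated start in RefSeq (GRCm38.p6), 5′ to 3′ on the gene's strand. Capitals mark matches, on either strand, to 6 motifs: the AP-1 motif TGANTCA, the CRE TGACGTCA, the STAT motif TTCNNNGAA, the PEA3 motif AGGAAG, the Sp1 motif GGGCGG and the TATA motif TATAAA.
Timp1, chrX:20869916-20870165, plus strand: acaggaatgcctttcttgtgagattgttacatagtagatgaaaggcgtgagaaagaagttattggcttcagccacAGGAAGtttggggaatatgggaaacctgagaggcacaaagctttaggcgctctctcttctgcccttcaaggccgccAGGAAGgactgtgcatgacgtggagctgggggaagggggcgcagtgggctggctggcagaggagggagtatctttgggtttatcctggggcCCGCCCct
Timp2, chr11:118355412-118355661, minus strand: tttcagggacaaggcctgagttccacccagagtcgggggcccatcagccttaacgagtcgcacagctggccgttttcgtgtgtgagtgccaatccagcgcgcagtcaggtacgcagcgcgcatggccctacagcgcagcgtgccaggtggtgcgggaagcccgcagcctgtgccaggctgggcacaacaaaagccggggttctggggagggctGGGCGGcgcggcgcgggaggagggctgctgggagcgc
Mmp14, chr14:54431348-54431597, plus strand: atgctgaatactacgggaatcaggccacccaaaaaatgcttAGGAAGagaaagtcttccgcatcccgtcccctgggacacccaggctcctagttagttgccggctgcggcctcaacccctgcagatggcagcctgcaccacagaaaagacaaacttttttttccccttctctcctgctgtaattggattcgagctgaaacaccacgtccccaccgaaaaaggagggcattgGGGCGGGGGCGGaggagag
Mmp3, chr9:7445572-7445821, plus strand: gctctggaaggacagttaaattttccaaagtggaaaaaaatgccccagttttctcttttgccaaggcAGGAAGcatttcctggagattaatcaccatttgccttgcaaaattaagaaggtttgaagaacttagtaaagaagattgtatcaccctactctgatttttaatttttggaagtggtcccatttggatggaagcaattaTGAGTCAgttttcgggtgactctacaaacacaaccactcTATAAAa
Timp4, chr6:115252206-115252455, minus strand: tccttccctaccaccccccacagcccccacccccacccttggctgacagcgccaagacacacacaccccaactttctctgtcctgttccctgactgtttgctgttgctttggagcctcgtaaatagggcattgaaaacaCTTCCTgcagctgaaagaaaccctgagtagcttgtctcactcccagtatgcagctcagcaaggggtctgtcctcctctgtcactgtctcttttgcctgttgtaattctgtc
Of these 5 windows, the Mmp3 window held an AP-1 match, from 46 to 40 bases before the start, and a TATA match from 7 to 2 bases before it. The Timp1 window held a pair of PEA3 matches and an Sp1 match from 8 to 3 bases before the start, and the Timp2 window an Sp1 match from 37 to 32 bases before it. The Mmp14 window held 1 PEA3 match and a pair of Sp1 matches side by side, and the Timp4 window held 1 PEA3 match on its other strand. Windows were at hand for 8 of the 10 genes, without Mmp2 and Mmp9. AP-1 matched in 1 of the 8 and in 6.75% of the 32851 RefSeq windows of the same length. PEA3 matched in 6 of the 8 and in 29.5% of all windows, Sp1 in 5 of the 8 and in 32.7%, and TATA in 1 of the 8 and in 12.4%. CRE and STAT matched in none of the 8, against 1.55% and 7.02% of all windows. Such a match describes letters only.

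Timp1 was the gene of the set with the largest difference in ARG hearts. Its ratio (probe set 1460227_at) lay between 0.801 and 1.12 in NTG hearts (median 0.926) and between 0.95 and 1.26 in AC5 hearts (median 1.09). In GLY hearts it lay between 1.34 and 4.62 (median 2.19), and in ARG hearts between 4.23 and 14.5 (median 5.96). Every GLY and every ARG heart was above every NTG and every AC5 heart, and 5 of 6 ARG hearts were above every GLY heart. The GLY hearts were the most scattered, with a log2 SD of 0.73, close to that of ARG (0.66) and well above those of NTG (0.19) and AC5 (0.17).

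Timp1 rose in ARG against NTG by 2.85 ± 0.26 (7.2-fold, adjusted p = 5.02e-08). It rose in GLY against NTG by 1.35 ± 0.26 (2.55-fold, adjusted p = 0.00261). In AC5 it was not called, at 0.22 ± 0.26 (adjusted p = 0.939, 95% interval -0.32 to 0.75). That SE and interval rest on the pooled spread, which the more scattered GLY and ARG hearts widen. Timp1 was called in AC5 against NTG in 0 of 11 other settings of the fit. Within replicates 1 to 3 and within replicates 4 to 6 the ARG difference was 2.35 and 3.34, and the GLY difference 1.14 (adjusted p = 0.0318) and 1.56 (adjusted p = 0.0504). After quantile normalization of the arrays the ARG difference was 2.02 ± 0.18. On linear ratios, GLY exceeded NTG by 1.71 ± 1.04 ratio units, which was not called (adjusted p = 0.403).

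Between the receptor forms, Timp1 rose in ARG against GLY by 1.50 ± 0.26 (2.83-fold, adjusted p = 0.0022). The order of its levels was thus ARG, GLY, AC5 and NTG, with AC5 and NTG not told apart. The ARG against GLY call was lost when only those groups entered the fit (adjusted p = 0.085) and after quantile normalization, which brought the difference to 0.76 ± 0.18 (adjusted p = 0.0956). Within replicates 1 to 3 it was 1.21 (adjusted p = 0.0701) and within replicates 4 to 6 it was 1.79 (adjusted p = 0.0157).

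Timp4 went the other way from Timp1. Its ratio at probe set 1423405_at lay between 0.668 and 1.19 in NTG hearts (median 1.05), between 0.338 and 0.888 in GLY hearts (median 0.544) and between 0.405 and 0.676 in ARG hearts (median 0.45). In AC5 hearts it lay between 0.841 and 3.11 (median 1.48), the widest spread of the groups. In each of GLY and ARG, 4 of 6 hearts were below every NTG heart, and the groups overlapped with NTG through its replicate 5.

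Timp4 fell in ARG against NTG by 1.00 ± 0.25 on the log2 scale (adjusted p = 0.00914), to 0.501 of the NTG mean. It fell in GLY against NTG by 0.92 ± 0.25 (adjusted p = 0.0304), to 0.529 of the NTG mean. ARG and GLY were not told apart, with a difference of -0.08 ± 0.25 (adjusted p = 0.93, 95% interval -0.59 to 0.44). In AC5 the difference from NTG was 0.55 ± 0.25 (adjusted p = 0.639), made up of -0.00 within replicates 1 to 3 and 1.11 within replicates 4 to 6. The second probe set, 1450974_at, gave smaller differences that were not called, -0.40 ± 0.16 in ARG (adjusted p = 0.12) and -0.39 ± 0.16 in GLY (adjusted p = 0.156). Over the 24 hearts the 2 Timp4 probe sets correlated at r = 0.80.

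The ARG call of Timp4 held without any 1 heart, but was lost within replicates 4 to 6 (-0.76, adjusted p = 0.218) and on linear ratios (a fall of 0.50 ± 0.22 ratio units, adjusted p = 0.189). The GLY call was lost on leaving out any 1 of NTG replicates 1, 2, 3, 4 and 6 or GLY replicates 3 and 4, with differences of -0.92 to -0.79 in those fits and an adjusted p of up to 0.0925. It was also lost within replicates 4 to 6 (-0.87, adjusted p = 0.353), after quantile normalization (-0.71, adjusted p = 0.159), without the 3 arrays of low weight (-0.85, adjusted p = 0.0994) and on linear ratios (adjusted p = 0.278).

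Set against each other in the same heart, the log2 ratio of Timp1 less that of Timp4 (1423405_at) lay between -0.53 and 0.46 in NTG and between -1.37 and 0.30 in AC5. It lay between 1.01 and 3.57 in GLY, and between 3.25 and 5.17 in ARG. The groups with a receptor transgene did not overlap with the others in this difference, as the plot of both genes by heart shows. Timp1 alone already parted these groups without overlap, so this is not a separate result.

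**Figure D1:**
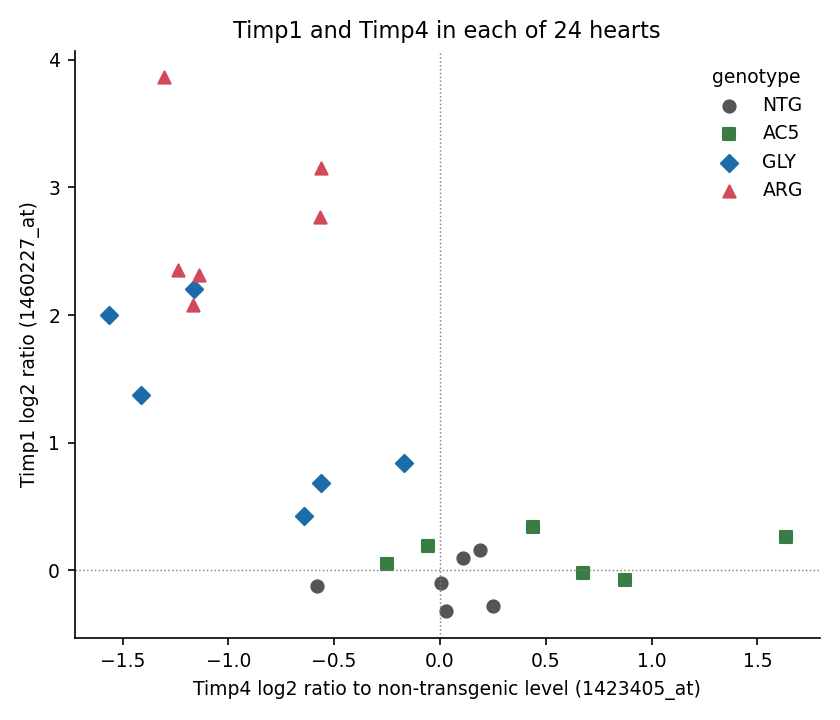
Each point is 1 of 24 hearts, placed by its log2 ratio of Timp4 (probe set 1423405_at, horizontal axis) and of Timp1 (1460227_at, vertical axis); dotted lines mark the non-transgenic level. The ARG hearts lie at the upper left, with Timp1 between 2.08 and 3.86 and Timp4 between -1.31 and -0.56, the GLY hearts have Timp1 between 0.42 and 2.21 and Timp4 between -1.57 and -0.17, and the AC5 hearts have Timp1 between -0.07 and 0.34.

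Timp2, a broadly expressed inhibitor, was called against NTG at 1 of its 6 probe sets, 1460287_at. Its ratio there lay between 0.842 and 1.22 in NTG hearts (median 1.00) and between 0.923 and 1.15 in AC5 hearts (median 0.985). It lay between 1.08 and 2.13 in GLY hearts (median 1.44) and between 1.45 and 2.20 in ARG hearts (median 1.61). Every ARG heart was above every NTG heart, and 4 of 6 GLY hearts were. It rose in ARG against NTG by 0.74 ± 0.12 (1.67-fold, adjusted p = 0.000166) and in GLY by 0.51 ± 0.12 (1.42-fold, adjusted p = 0.015). ARG against GLY differed by 0.23 ± 0.12 (adjusted p = 0.425, 95% interval -0.02 to 0.48).

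The other 5 Timp2 probe sets differed by 0.08 to 0.30 in ARG against NTG and were not called. Over the 15 pairs of Timp2 probe sets the correlation across the 24 hearts ran from -0.30 to 0.85, with a median of 0.63. The low values were those of the 5 pairs with 1437081_at (-0.30 to 0.06), while the 10 pairs without it gave 0.41 to 0.85. The GLY call at 1460287_at was lost in several settings: after quantile normalization (0.43, adjusted p = 0.0535), with GLY and NTG alone in the fit (adjusted p = 0.0641), without the 3 arrays of low weight (0.37, adjusted p = 0.0729), and within each set of replicates (adjusted p = 0.117 and 0.209). The ARG difference was 0.62 within replicates 1 to 3 (adjusted p = 0.126) and 0.86 within replicates 4 to 6 (adjusted p = 0.00197).

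Timp3, which stays bound to the matrix and also inhibits ADAM proteases, was below the NTG mean at all 4 probe sets in both receptor groups, and no probe set was called. The differences ran from -0.35 to -0.15 in ARG and from -0.50 to -0.21 in GLY. At 1449334_at the ratio lay between 0.83 and 1.15 in NTG (median 1.05), between 0.849 and 1.20 in AC5 (median 0.938), between 0.574 and 1.03 in GLY (median 0.793) and between 0.734 and 0.907 in ARG (median 0.784). The groups overlapped, and the differences were -0.35 ± 0.12 in ARG (adjusted p = 0.0701) and -0.38 ± 0.12 in GLY (adjusted p = 0.0672). This probe set was called in both comparisons with the set of replicates as a term (adjusted p = 0.0281 in ARG and 0.0284 in GLY). The same held with the replicate number as a block and within replicates 1 to 3. In all it was called in 4 of 11 other settings in ARG and in 3 of 11 in GLY. With the set of replicates as a term, 1419089_at was also called in GLY.

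The low Timp3 values of GLY lay mostly in replicates 1 to 3. Within replicates 1 to 3 the GLY differences were -0.49 at 1419088_at (adjusted p = 0.101), -0.83 at 1419089_at (adjusted p = 0.0141), -0.66 at 1449334_at (adjusted p = 0.00656) and -0.90 at 1449335_at (adjusted p = 0.014). Within replicates 4 to 6 they were 0.07, -0.09, -0.11 and -0.10, none of them called. Limma gave a weight under 0.5 to 3 arrays, among them GLY replicates 1 and 3 (0.354 and 0.312, and 0.478 for ARG replicate 1). In the fit without these 3 arrays, and in that with array weights, no Timp3 probe set was called in GLY against NTG. What these arrays add to the gap between the sets of replicates was not tested. The 4 Timp3 probe sets followed each other across hearts, with r between 0.66 and 0.97 over 6 pairs.

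**Figure D2:**
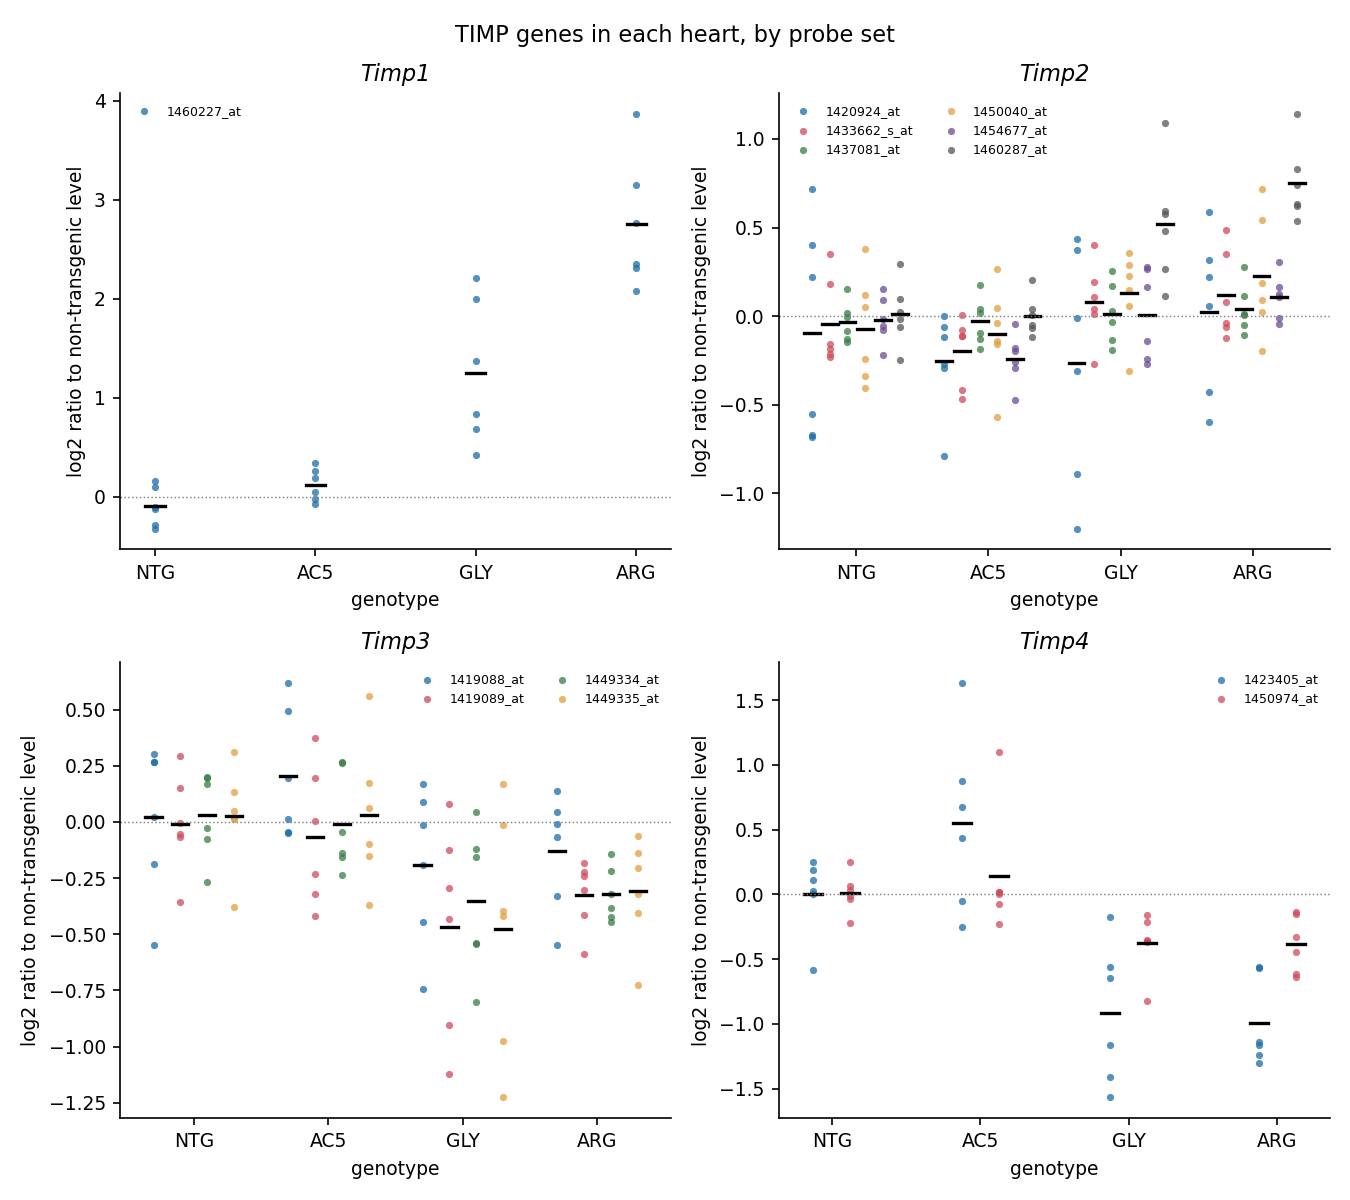
Log2 ratio to the non-transgenic level (vertical axis) of each TIMP probe set in each heart by genotype (horizontal axis); points are hearts, 6 per genotype, colours are probe sets and black bars are genotype means. Timp1 climbs from NTG and AC5 through GLY to ARG, Timp4 is below the dotted non-transgenic level in every GLY and ARG heart, and of the 6 Timp2 probe sets 1460287_at stands out.

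Mmp14, the membrane-anchored collagenase MT1-MMP, was the protease of the set with the largest differences from NTG in ARG hearts. At 1448383_at its ratio lay between 0.908 and 1.07 in NTG hearts (median 1.00), between 0.761 and 0.908 in AC5 hearts (median 0.867), between 0.761 and 1.28 in GLY hearts (median 1.04) and between 1.13 and 2.29 in ARG hearts (median 1.72). Every ARG heart was above every NTG and every AC5 heart, and 4 of 6 were above every GLY heart. It rose in ARG against NTG by 0.70 ± 0.13 (1.62-fold, adjusted p = 0.000684) and against GLY by 0.66 ± 0.13 (1.58-fold, adjusted p = 0.00748). GLY against NTG gave 0.03 ± 0.13 (adjusted p = 0.932), and AC5 against NTG -0.23 ± 0.13 (adjusted p = 0.793). Although AC5 was not called here, 5 of 6 AC5 hearts were below every NTG heart. The log2 SD was 0.08 in NTG and 0.10 in AC5, against 0.29 in GLY and 0.38 in ARG, which widen the pooled SE.

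A second Mmp14 probe set, 1416572_at, also rose in ARG against NTG, by 0.67 ± 0.13 (1.59-fold, adjusted p = 0.000943). It placed GLY between the other groups. Its ratio lay between 0.687 and 1.18 in NTG and between 0.862 and 1.08 in AC5. It lay between 1.12 and 1.45 in GLY and between 1.17 and 2.30 in ARG. ARG overlapped with NTG, with 5 of 6 ARG hearts above every NTG heart. There GLY exceeded NTG by 0.39 ± 0.13, which was not called (adjusted p = 0.0863), and ARG against GLY gave 0.28 ± 0.13 (adjusted p = 0.343). The third probe set, 1440920_at, was not called in either group, at 0.23 ± 0.10 in ARG (adjusted p = 0.149) and 0.22 ± 0.10 in GLY (adjusted p = 0.194). The 3 probe sets thus gave GLY differences from NTG of 0.03 to 0.39, none of them called. They were not tested against each other, and they correlated at r = 0.67 to 0.78 across hearts. Within replicates 1 to 3 the ARG calls against NTG were lost at both probe sets (0.46, adjusted p = 0.193, and 0.57, adjusted p = 0.0948). The ARG against GLY call was lost when only those groups were fitted (adjusted p = 0.146), after quantile normalization (0.44, adjusted p = 0.13) and within replicates 1 to 3 (0.52, adjusted p = 0.148).

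Mmp3, stromelysin 1, which cleaves proteoglycans and activates other MMP precursors, rose in ARG against NTG by 0.48 ± 0.15 (1.39-fold, adjusted p = 0.0342). Its ratio at 1418945_at lay between 0.791 and 1.13 in NTG (median 0.98), 0.801 and 1.03 in AC5 (median 0.918), 0.875 and 1.25 in GLY (median 1.03) and 0.969 and 2.44 in ARG (median 1.25). ARG replicate 4 was the highest, and 3 of 6 ARG hearts were above every NTG heart. Without ARG replicate 4 the difference was 0.30 (adjusted p = 0.0825). The call was likewise lost without NTG replicate 1, 3, 4 or 6 or ARG replicate 2 or 5, with differences of 0.42 to 0.49 and an adjusted p of up to 0.0921. It was lost too after quantile normalization (0.35, adjusted p = 0.0924), with ARG and NTG alone in the fit (adjusted p = 0.0862), on linear ratios (0.44 ratio units, adjusted p = 0.0589) and within each set of replicates (0.26, adjusted p = 0.521, and 0.70, adjusted p = 0.063). In GLY the difference was 0.11 ± 0.15 (adjusted p = 0.748), and ARG against GLY gave 0.37 ± 0.15 (adjusted p = 0.249).

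Mmp2, gelatinase A, the gelatinase made widely by fibroblasts, was not called against NTG in any group. Its probe sets 1416136_at and 1439364_a_at gave 0.11 and 0.16 in ARG, -0.05 and 0.04 in GLY and -0.23 and -0.23 in AC5 (adjusted p = 0.602 and 0.64). Its ratio at 1439364_a_at lay between 0.846 and 1.04 in NTG, 0.709 and 0.919 in AC5, 0.822 and 1.24 in GLY, and 0.971 and 1.32 in ARG. ARG and AC5 lay on either side of NTG, and the ARG hearts were all above the AC5 hearts at this probe set. The 2 probe sets correlated at r = 0.91 across hearts.

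Mmp9, gelatinase B, and Mmp8, the neutrophil collagenase, were not called in any comparison. Mmp9 gave -0.18 ± 0.09 at 1416298_at (adjusted p = 0.28) and -0.23 ± 0.17 at 1448291_at (adjusted p = 0.534) in ARG against NTG. Its 2 probe sets correlated at r = 0.31 only. Mmp8 gave -0.01 ± 0.09 in ARG (adjusted p = 0.968), and its ratio lay between 0.805 and 1.14 over NTG and ARG hearts. By limma 0 of the 10 neutrophil markers with a probe set were called in ARG, GLY or AC5 against NTG, with 1, 0 and 1 at an unadjusted p under 0.05.

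**Figure D3:**
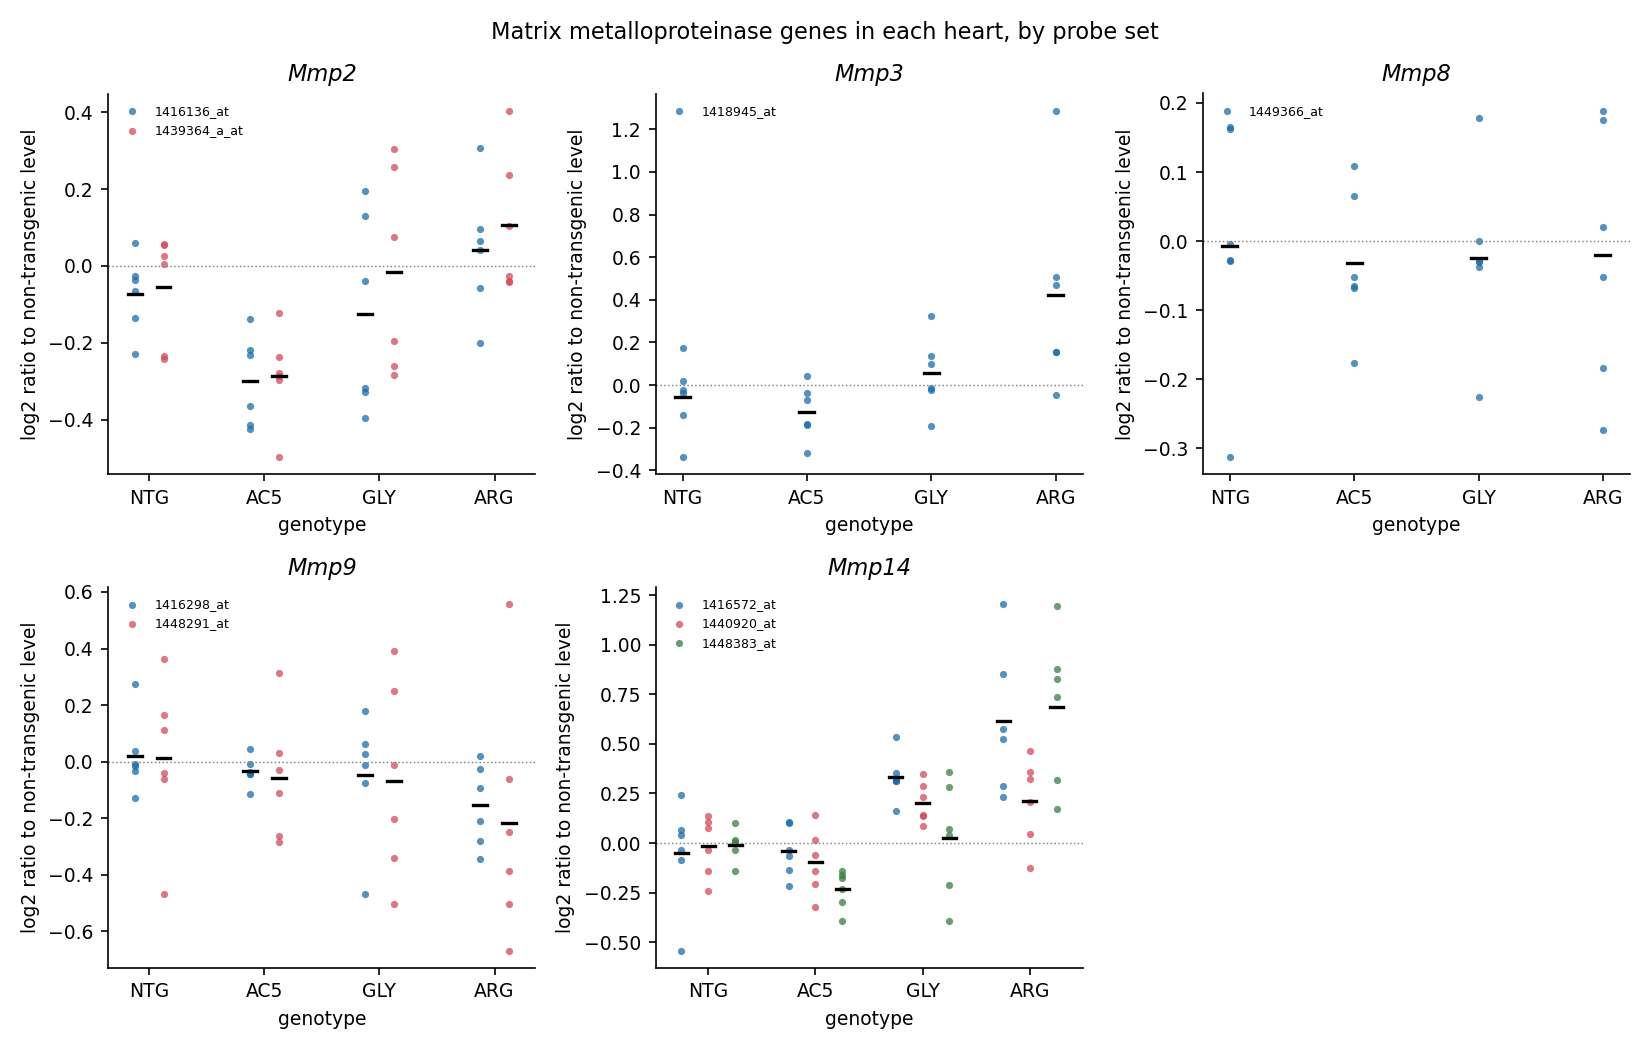
Log2 ratio to the non-transgenic level (vertical axis, a different range in each panel) of each MMP probe set in each heart by genotype (horizontal axis); points are hearts, 6 per genotype, colours are probe sets and black bars are genotype means. Mmp14 is highest in ARG at 1416572_at and 1448383_at, 1 ARG heart at 1.29 stands above the rest for Mmp3, and the Mmp8 groups lie on top of each other.

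Counted over all 22 probe sets, 5 rose and 1 fell in ARG against NTG. That is set beside 9.67% of all 45037 probe sets called in this comparison, 4.04% rising and 5.63% falling. In GLY against NTG 2 rose and 1 fell, beside 5.08% called of all (1.55% rising and 3.53% falling). The groups did not overlap for 3 of the 22 in ARG (6.11% of all), for 1 in GLY (2.68% of all) and for 0 in AC5 (1.22% of all). In AC5 against NTG limma called none of the 22, beside 0.142% of all, while 4 had an unadjusted p under 0.05 (Timp2 1454677_at, Timp4 1423405_at and both Mmp2 probe sets). Of all 45037 probe sets, 3268 had such a p in AC5 against NTG, 8535 in GLY against NTG and 9080 in ARG against NTG. The median difference of the 22 was 0.12 for ARG, 0.01 for GLY and -0.05 for AC5, beside 0.00, 0.03 and -0.00 for all probe sets.

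**Figure D4:**
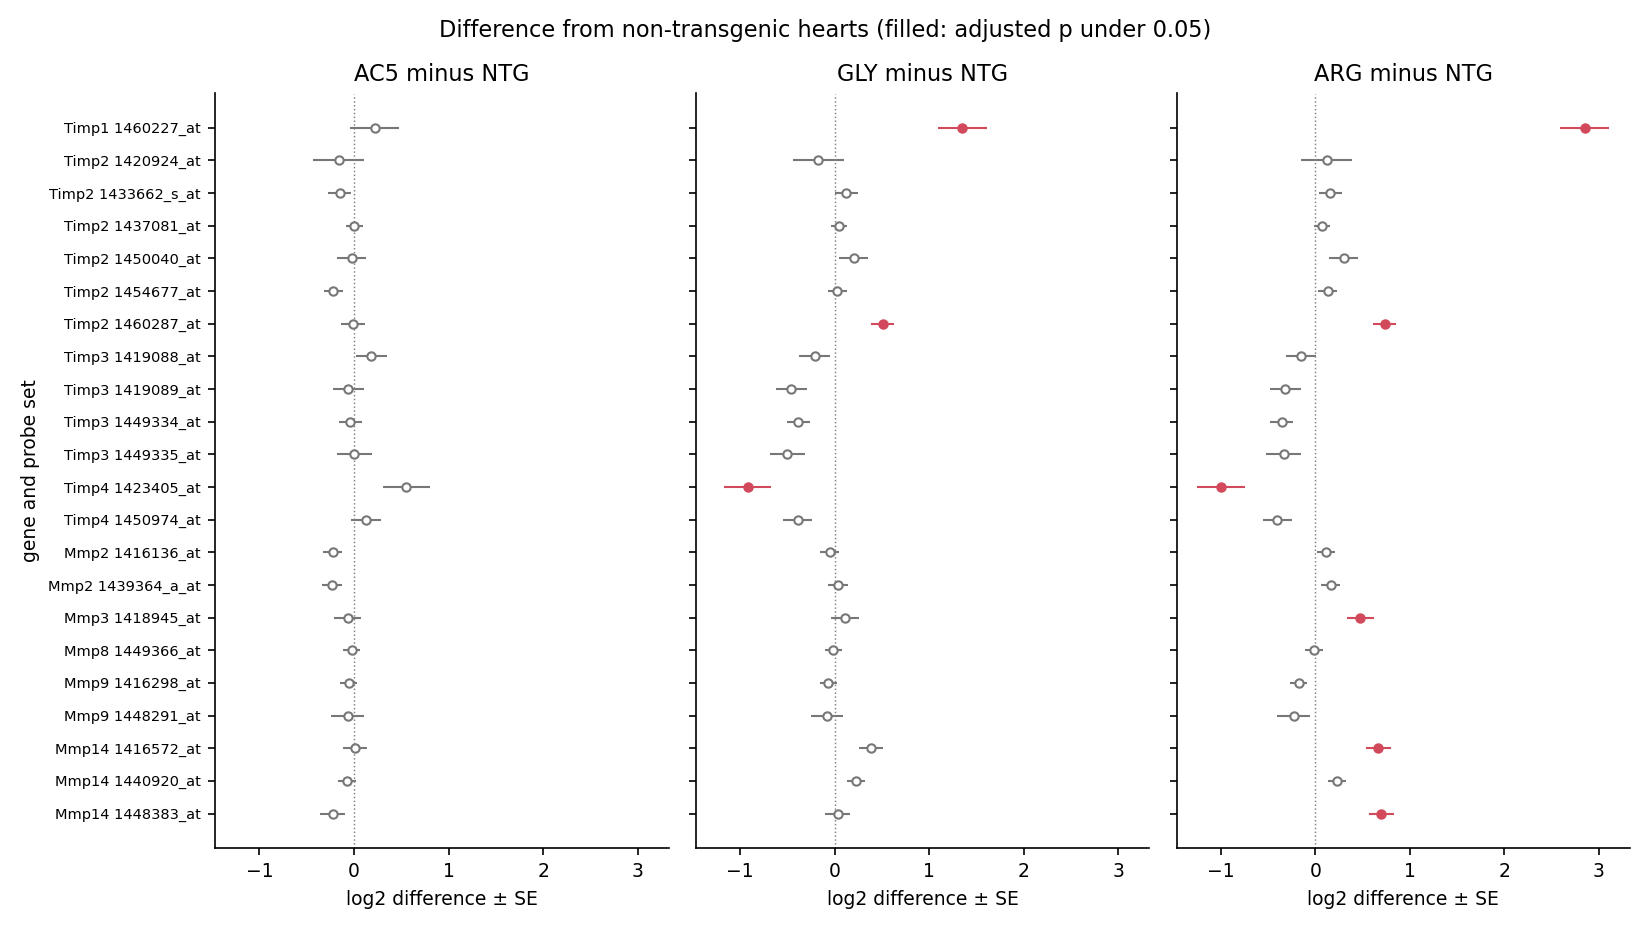
Log2 difference from NTG (horizontal axis, ± SE) of each of the 22 probe sets (rows) in AC5, GLY and ARG hearts, filled where the adjusted p was under 0.05. Timp1 lies farthest to the right in GLY (1.35) and ARG (2.85), Timp4 1423405_at, which fell by 0.92 in GLY and by 1.00 in ARG, farthest to the left, and no symbol is filled in AC5.

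Directly between the receptor forms, 2 of the 22 were called in ARG against GLY, beside 1.51% of all probe sets (0.793% rising and 0.713% falling), and both were higher in ARG (Timp1 and Mmp14 at 1448383_at). ARG and GLY overlapped at each of the 22 probe sets, while 0.793% of all did not overlap. Of the 4 TIMPs, Timp1 was called between the forms, while the 95% intervals of the Timp2, Timp3 and Timp4 probe sets each included 0. For Timp3 the differences between ARG and GLY ran from 0.03 to 0.17.

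Against AC5, which like the receptors acts in the beta-adrenergic pathway, 8 of the 22 rose in ARG and 2 fell, beside 4.93% of all probe sets called (2.52% rising and 2.41% falling). The groups did not overlap for 7 of the 22, beside 3.07% of all. Timp1 differed by 2.63 ± 0.26 (6.19-fold, adjusted p = 4.71e-07) and Timp4 at 1423405_at by -1.55 ± 0.25 (adjusted p = 0.000265), without overlap. Mmp14 differed by 0.92 ± 0.13 at 1448383_at (adjusted p = 6.41e-05) and by 0.65 ± 0.13 at 1416572_at (adjusted p = 0.00234), without overlap at either, and Timp2 at 1460287_at by 0.75 ± 0.12 (adjusted p = 0.00032). Mmp2 rose against AC5 by 0.34 ± 0.10 at 1416136_at (adjusted p = 0.0404) and 0.39 ± 0.10 at 1439364_a_at (adjusted p = 0.0246), although it was not called against NTG. Smaller calls were those of Mmp3 (0.55, adjusted p = 0.0242), Timp2 at 1454677_at (0.35, adjusted p = 0.0359) and Timp4 at 1450974_at (-0.53, adjusted p = 0.0477).

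Several of these calls lay near the threshold and were lost on leaving out single hearts. The call of Mmp2 at 1416136_at held on leaving out AC5 replicate 2 or ARG replicate 1 or 3, and was lost without any 1 of the other 9 hearts (0.29 to 0.36 in those fits). At 1439364_a_at the Mmp2 call was lost without AC5 replicate 3 or ARG replicate 4 or 5 (0.33 to 0.37). The Mmp3 call was lost without AC5 replicate 2, 3 or 6 or ARG replicate 5 (0.51 to 0.54). The call of Timp2 at 1454677_at held without AC5 replicate 6 or ARG replicate 1 or 3 and was lost without any other (0.30 to 0.36). The call of Timp4 at 1450974_at was lost without AC5 replicate 1, 2, 5 or 6 or ARG replicate 1, 2, 4 or 5 (-0.55 to -0.34), and in 9 of 11 other settings, while 1423405_at and Timp1 kept theirs in all 11. Within replicates 1 to 3, which hold 3 hearts per group, the calls against AC5 at Mmp14 1448383_at (0.61, adjusted p = 0.166), Mmp14 1416572_at (0.49, adjusted p = 0.324) and Timp2 1460287_at (0.68, adjusted p = 0.199) were lost. The calls of Mmp2, of Mmp3 and of Timp2 at 1454677_at were lost within each set of replicates. Quantile normalization also ended the calls of Mmp3 (0.41, adjusted p = 0.0834), Mmp14 at 1416572_at (0.46, adjusted p = 0.24) and Timp2 at 1454677_at (0.39, adjusted p = 0.0519). The Mmp3 call was lost too with only ARG and AC5 in the fit (adjusted p = 0.0697) and on linear ratios (adjusted p = 0.0582), and that of Mmp2 at 1416136_at with centred arrays (adjusted p = 0.0558) and on linear ratios (adjusted p = 0.0537).

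In GLY against AC5, 2 rose and 1 fell of the 22, beside 0.693% of all probe sets (0.255% rising and 0.437% falling). The groups did not overlap for 2 of the 22, Timp1 and Mmp14 at 1416572_at, beside 0.995% of all. Timp4 at 1423405_at fell by 1.47 ± 0.25 (adjusted p = 0.0036), a call lost within replicates 1 to 3 (-0.97, adjusted p = 0.0721) and within replicates 4 to 6 (-1.98, adjusted p = 0.0561). Timp1 rose by 1.13 ± 0.26 (adjusted p = 0.0343), a call that was lost without any 1 of the 6 AC5 hearts or GLY replicate 3, 4 or 6 (0.94 to 1.17 in those fits) and in 7 of 11 other settings. Timp2 at 1460287_at rose by 0.52 ± 0.12 (adjusted p = 0.042), and the call was lost without AC5 replicate 1, 2, 3, 4 or 5 or GLY replicate 1, 3 or 4 (0.40 to 0.53) and in 8 of 11 other settings.

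In the mouse genome 3 of the TIMP genes lie inside a synapsin gene, and the arrays measured these host genes as well. Timp1 on chromosome X lies inside Syn1, whose probe set differed by 0.20 in ARG against NTG and was not called. Timp4 on chromosome 6 lies inside Syn2 on the other strand, whose 6 probe sets differed by -0.24 to 0.14 and were not called. Timp3 on chromosome 10 lies inside Syn3, none of whose 3 probe sets was called (-0.13 to 0.13). Of the 23 MMP genes in the gene table, 10 lie on chromosome 9, among them Mmp3, Mmp8 and Mmp12. These positions are those of RefSeq (GRCm38.p6).

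Among the other 13 MMPs with a probe set, taking 1 probe set per gene, 2 rose and none fell in ARG against NTG. Over all genes taken in this way, 11.3% were called in ARG, 4.25% rising and 7.09% falling. Mmp12, the macrophage elastase, rose by 1.04 ± 0.14 (adjusted p = 1.13e-05), and it also rose in ARG against GLY by 0.72 ± 0.14 (adjusted p = 0.00596), where 1.9% of all genes were called (0.995% rising and 0.907% falling). Mmp23 rose by 0.54 ± 0.13 in ARG (adjusted p = 0.00772) and by 0.45 ± 0.13 in GLY (adjusted p = 0.0466), where 5.46% of all genes were called (1.34% rising and 4.13% falling). The median difference of the 13 in ARG was 0.04.

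Of 15 ADAM and ADAMTS proteases, which TIMPs also inhibit in part, 2 rose and 1 fell in ARG. The aggrecanase Adamts4 rose by 0.50 ± 0.09 (adjusted p = 0.000644), and Adamts1 fell by 0.74 ± 0.11 (adjusted p = 2.35e-05) in ARG and by 0.58 ± 0.11 (adjusted p = 0.00155) in GLY. In ARG against GLY Adam8 rose by 0.47 ± 0.11 (adjusted p = 0.0289). Of 12 genes of the plasminogen system and other activators of MMP precursors, 2 rose in ARG and none fell. The lysosomal protease gene Ctss, for cathepsin S, rose by 1.45 ± 0.20 (adjusted p = 1.31e-05) in ARG against NTG and by 1.33 ± 0.20 (adjusted p = 0.000668) against GLY. Furin, which cleaves the Mmp14 precursor, was the 1 gene of this list called in GLY (0.41 ± 0.11, adjusted p = 0.0306).

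Of 14 other inhibitors and binding partners of MMPs, 5 rose and 1 fell in ARG. Cd44, the hyaluronan receptor that holds MMPs at the cell surface, rose by 2.31 ± 0.22 (adjusted p = 7.35e-08) in ARG and by 0.98 ± 0.22 (adjusted p = 0.00843) in GLY, and by 1.34 ± 0.22 (adjusted p = 0.00132) in ARG against GLY. Reck, a membrane-anchored MMP inhibitor, fell by 0.40 ± 0.09 in ARG (adjusted p = 0.00499). The called genes of this list that rose were Cd44, Thbs1, Lcn2, Lrp1 and Pzp.

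Of 20 genes for matrix proteins that MMPs cleave, 6 rose and 1 fell in ARG against NTG. In GLY limma called none of them, with 3 at an unadjusted p under 0.05. Col1a1 and Col3a1, the fibrillar collagens of the heart, each rose by 1.06 in ARG (± 0.22, adjusted p = 0.00181, and ± 0.27, adjusted p = 0.0108). Lamb1, a laminin chain of basement membranes, fell by 0.57 ± 0.11 (adjusted p = 0.000732). In ARG against GLY 3 of the 20 rose, with Col3a1 at 1.09 ± 0.27 (adjusted p = 0.0362). The median of the 20 was 0.19 in ARG and -0.05 in GLY. Several of these genes were known from earlier results of these data to be higher in ARG.

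Of 24 inducers and transcription factors of Timp1 and the Mmp genes, 4 rose and 2 fell in ARG. In GLY limma called none, with 4 at an unadjusted p under 0.05. Socs3, a feedback inhibitor of STAT signalling, rose by 1.28 ± 0.15 (adjusted p = 1.9e-06), and the others that rose were Osmr, Junb and Il6. Jun, a subunit of AP-1, fell by 0.60 ± 0.10 (adjusted p = 0.000103). In ARG against GLY Socs3 rose by 0.98 ± 0.15 (adjusted p = 0.000998) and Jun fell by 0.61 ± 0.10 (adjusted p = 0.001). In AC5 against NTG limma called none of the 98 genes of these 6 lists, beside 0.17% of all genes. Of the 98, 8 had an unadjusted p under 0.05, as had 3268 of all 45037 probe sets.

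Against AC5, 22 of the 98 genes rose in ARG and 2 fell, beside 6.34% of all genes. The largest rises of the lists were Cd44 (2.06 ± 0.22, adjusted p = 1.24e-06), Col3a1 (1.76 ± 0.27, adjusted p = 0.000156), Ctss (1.44 ± 0.20, adjusted p = 3.99e-05), Socs3 (1.24 ± 0.15, adjusted p = 1.15e-05), Mmp12 (1.06 ± 0.14, adjusted p = 2.71e-05) and Adam19 (0.52 ± 0.15, adjusted p = 0.0449). Adamts1 (-0.36 ± 0.11, adjusted p = 0.0425) and Lamb1 (-0.45 ± 0.11, adjusted p = 0.0123) fell. In GLY against AC5, 2 of the 98 rose, beside 0.863% of all genes: Fos, a subunit of AP-1, by 2.23 ± 0.40 (adjusted p = 0.00522), and Junb. Fos differed from NTG by 0.97 in GLY and by -1.25 in AC5. Neither gene was called against NTG in GLY or in AC5, so this comparison does not show a rise above NTG.

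**Figure D5:**
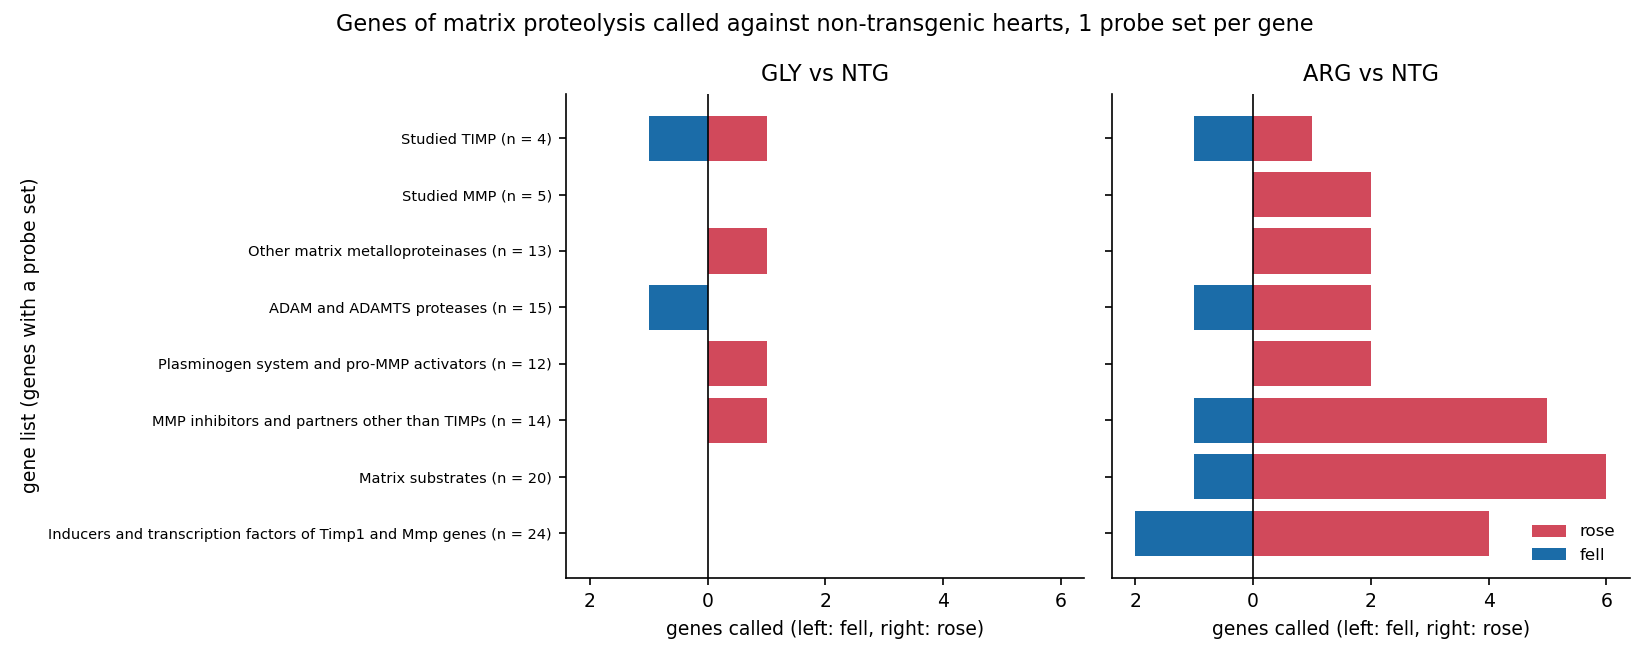
Number of genes called against NTG in GLY (left) and ARG (right) hearts in each list (rows), with 1 probe set per gene taken without regard to its values; bars to the left count genes that fell and bars to the right genes that rose. ARG has called genes in every list shown, while GLY has none among the 5 MMPs of the set, matrix substrates or inducers; Timp2 is not counted because its called probe set is not the one the rule takes.

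Some cell type markers were called against NTG in ARG or GLY, while none of the neutrophil markers was. Of 16 macrophage markers 11 rose in ARG against NTG and none fell, led by Ms4a7 (1.74 ± 0.18, adjusted p = 2.08e-07). The mean log2 ratio of the 16 lay between -0.06 and 0.06 in NTG hearts, between -0.21 and 0.17 in AC5, between -0.23 and 0.53 in GLY and between 0.26 and 0.99 in ARG. In GLY 2 of them rose, with Ms4a7 at 0.68 ± 0.18 (adjusted p = 0.0247), and 1 fell (Cd163, -0.52 ± 0.14, adjusted p = 0.0262). In ARG against GLY 5 of the 16 rose, with Ms4a7 at 1.06 ± 0.18 (adjusted p = 0.00159).

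Of 12 fibroblast markers 5 rose and 1 fell in ARG, with Mfap5 at 1.09 ± 0.15 (adjusted p = 2.28e-05) and Gsn at -0.64 ± 0.14 (adjusted p = 0.00357). The mean of the 12 lay between -0.15 and 0.05 in NTG, between -0.22 and -0.14 in AC5, between -0.18 and 0.33 in GLY and between -0.03 and 0.45 in ARG. In GLY against NTG limma called none of them, with 5 at an unadjusted p under 0.05, and Mfap5 rose in ARG against GLY by 0.68 ± 0.15 (adjusted p = 0.019). Against AC5, 11 macrophage markers (Ms4a7 1.53 ± 0.18, adjusted p = 4.75e-06) and 5 fibroblast markers (Mfap5 1.37 ± 0.15, adjusted p = 3.29e-06) rose in ARG. The part of macrophages and fibroblasts in the values of Timp1, Timp2, Mmp14 and Mmp3 was not tested. In whole hearts, more or fewer cells of a type and more or less RNA per cell cannot be told apart.

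Of 14 endothelial markers 5 fell in ARG and 3 in GLY, led in both by Fabp4 (-1.73 ± 0.29, adjusted p = 0.000188, and -1.72 ± 0.29, adjusted p = 0.000974). The mean of the 14 lay between -0.16 and 0.10 in NTG, between -0.40 and -0.01 in AC5, between -0.58 and -0.06 in GLY and between -0.60 and -0.14 in ARG. Of 12 cardiac myocyte markers 1 fell in ARG, Tcap (-0.81 ± 0.10, adjusted p = 4.7e-06), and limma called none in GLY, with 2 at an unadjusted p under 0.05. Their mean lay between -0.16 and 0.14 in NTG, between -0.19 and 0.02 in AC5, between -0.29 and 0.08 in GLY and between -0.25 and -0.08 in ARG. Tcap also fell in ARG against GLY (-0.47 ± 0.10, adjusted p = 0.0153). Of 10 smooth muscle and pericyte markers 2 fell in ARG and 1 in GLY, with Abcc9 at -0.67 ± 0.14 (adjusted p = 0.00131) and -0.56 ± 0.14 (adjusted p = 0.0145). The part of these cells in the lower values of Timp4 and Timp3 was not tested. Since values are ratios, the labelled tissue could not be checked by the level of its markers.

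The genes whose pattern over the 24 hearts was most like that of Timp1 were Rtn4 (Pearson r = 0.977), Cd44 (0.976), Ccl8 (0.973), Serpina3n (0.972), Lgals3 (0.970) and Uchl1 (0.970). These r values rest largely on the genotype means, which the hearts of a group share. Ccl8, a chemokine gene, differed from NTG by 3.46 ± 0.34 in ARG and by 1.57 ± 0.34 in GLY, and Lgals3, for galectin 3, by 2.75 ± 0.26 and 1.49 ± 0.26. Once each genotype mean was subtracted, so that only the spread between hearts of a group was left, the closest were Uchl1 (0.935), Fxyd5 (0.913), Rtn4 (0.891), Frzb (0.889), Serpina3n (0.888) and Mfap5 (0.885). Rtn4, Serpina3n and Uchl1 were in both lists.

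Among the genes of the set, Timp1 correlated over the 24 hearts with Timp2 at 1460287_at (r = 0.91) and with Mmp14 at 1448383_at (r = 0.89) and 1416572_at (r = 0.83). At the other Timp2 probe sets r ran from 0.04 to 0.61, and at Mmp14 1440920_at it was 0.64. Timp1 correlated with Mmp3 at r = 0.74, and with Timp4 at r = -0.69 (1423405_at) and -0.55 (1450974_at). With Mmp2 r was 0.63 and 0.70, with Mmp9 -0.52 and -0.32, and with Mmp8 -0.13. With the 4 Timp3 probe sets r was -0.42 to -0.23. With genotype means subtracted, r was 0.22 to 0.35 with Timp3 and -0.26 with Timp4 at 1423405_at. Values after this step for the other genes of the set are not given here. These are descriptions over hearts that share genotypes and arrays.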

How the data were processed

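The deposited values are a linear ratio per probe set and heart, made by the authors with RMA per the submitters' processing notes, without a version. That they were divided by the non-transgenic level was read from the values, and is stated in no label. The medians of the arrays ran from -0.05 to 0.09 in log2. Of 45101 probe sets, 64 Affymetrix controls were left out. The 45037 tested comprised 34945 with a single gene symbol (18193 genes), 932 with more symbols and 9160 without. No filter on brightness was possible. Log2 was taken and limma 3.58.1 in R 4.3.3 was fitted to 24 arrays with 1 mean per genotype and no block. Its number of arrays limits the precision. The script was tested on simulated data. Plots and tables were made with Python 3.11.15.

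The genes and lists were chosen with earlier results of these data known. All probe sets of the set were named. From each list the called gene that rose most and the one that fell most were to be named in each comparison; a few such genes are left out of the text, and further called members were added after their values were seen. Lists took 1 probe set per gene, by suffix and then lowest number. Likeness was Pearson r. Alternatives were another normalization, centring, fitted groups, a replicate block, sets of replicates, array weights, robust fitting, linear ratios and leaving out each heart. Promoter windows came from RefSeq.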

Additional observations from a re-analysis of the deposited data

Results flagged for a closer look

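In 4 of the 88 groups of 6 hearts (22 probe sets in 4 genotypes), 1 heart lay far from the other 5 on the log2 scale. Chance gives about 1 in 20 such groups. For Timp4 at 1423405_at, NTG replicate 5 was the lowest, at -0.583, with the next heart at 0.00. This heart is the one through which the NTG group overlaps with the GLY and ARG groups. For Timp4 at 1450974_at, AC5 replicate 5 was the highest, at 1.1, with the next at 0.02, and GLY replicate 6 was the lowest, at -0.821, with the next at -0.37. For Timp2 at 1420924_at, AC5 replicate 1 was the lowest, at -0.791, with the next at -0.29.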

How the results depend on the processing

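No difference of the 132 (22 probe sets in 6 comparisons) that was called changed its sign in any alternative. Counts of the 22 probe sets called were 6 (ARG against NTG), 3 (GLY against NTG), 0 (AC5 against NTG), 2 (ARG against GLY), 10 (ARG against AC5) and 3 (GLY against AC5). Leaving out each heart in turn gave 5 to 7, 2 to 6, 0 to 0, 2 to 2, 5 to 11 and 1 to 3. In GLY against NTG the count was 5 without GLY replicate 4 and 6 without GLY replicate 6. In ARG against NTG it was 3 within replicates 1 to 3. In GLY against NTG it was 1 after quantile normalization, without the 3 arrays of low weight and on linear ratios, 5 with the set of replicates as a term, 5 within replicates 1 to 3 and 0 within replicates 4 to 6. In ARG against GLY it was 0 after quantile normalization, with only the genotypes compared in the fit and within replicates 1 to 3. In ARG against AC5 it was 6 after quantile normalization, 2 within replicates 1 to 3 and 6 within replicates 4 to 6. In GLY against AC5 it was 1 with centred arrays, with only the genotypes compared, without the 3 arrays of low weight and on linear ratios, and 0 within each set of replicates. The called probe sets of GLY against NTG were 2 higher and 1 lower, and 1 higher and 0 lower after quantile normalization; those of GLY against AC5 were 2 higher and 1 lower, 0 higher and 1 lower with centred arrays, and 1 of each after quantile normalization. Fits within 1 set hold 3 hearts per group, and for the other settings the cause was not tested.

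The hearts were not treated as paired by replicate number, because in no comparison were all same-numbered correlations over 0.1. This rule does not show that the hearts were unpaired. ARG against GLY gave 0.05 to 0.49, and 5 of 6 were over 0.1 in ARG against GLY and in ARG against AC5. With the replicate number as a block the counts were 7, 4, 0, 2, 9 and 2 in the same order, without Timp4 1450974_at in ARG against AC5 (adjusted p = 0.0644) and Timp2 1460287_at in GLY against AC5 (adjusted p = 0.064). Timp1 kept its calls in ARG against NTG in all 11 other settings.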
